A study of Mus musculus with 21 samples.

Results

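The 49 genes described here encode splicing factors and proteins of the small nuclear ribonucleoproteins (snRNPs), out of 49997 genes in the mouse gene table (RefSeq, GRCm38.p6), of which 21900 are protein-coding. They were taken from a list of names, and every name was found in the table. A gene was said to have a peak where any part of the peak lay within 1 kb of the span of the gene. The set holds 11 SR proteins, 5 SR-related and nuclear speckle proteins, the 7 Sm core proteins, 3 proteins of the U1 snRNP, 10 of the U2 snRNP, both subunits of U2AF, 7 proteins of the U5 snRNP and the tri-snRNP, Prpf19, and the regulators Mbnl1, Mbnl2 and Ptbp1.

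Pre-mRNA splicing is carried out by the spliceosome, which is assembled on each intron from snRNPs. Each snRNP is a small nuclear RNA with a ring of Sm proteins (Lsm proteins in the case of U6) and proteins of its own. The U1 snRNP recognises the 5′ splice site, U2AF and the U2 snRNP recognise the 3′ splice site and the branch point, and the U4/U6.U5 tri-snRNP then brings in the parts that form the catalytic centre. SR proteins bind exons and recruit these parts, and many splicing factors are stored in nuclear speckles, which are held together by the proteins Son and Srrm2. PSME3, also named PA28γ or REGγ, binds the core of the proteasome in the nucleus and activates it.

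PSME3 and trimethylated lysine 4 of histone H3 (H3K4me3, a mark of active promoters) were mapped by CUT&RUN, in which a nuclease tethered to an antibody releases the DNA around its target, in C2C12 cells, an established line of mouse myoblasts. Cycling cells were kept in 20% FBS and were frozen in 10% DMSO in the native state, with 3 replicate libraries for each antibody. Day 2 cells had been confluent and were taken 48 h after a change to 2% horse serum, in 4 preparations with 1 library for each antibody: fresh or frozen cells, each left native or treated with 0.1% formaldehyde for 5 min. No genotype or drug differed between the groups. Since day 2 frozen native is the only preparation handled like the cycling cells, stage was compared under equal handling with 1 day 2 library. All libraries come from 1 cell line, and the share of cells with a bound site and the amount bound per cell cannot be told apart in such bulk samples. The myoblast label was checked on H3K4me3: Myod1, Myf5, Myf6, Des and Cdh15 had a peak in all 7 lists, Myog, Myh3, Tnnt1 and Actc1 had one in the 4 day 2 lists and in no cycling list, Mymk had one in the 4 day 2 lists and in cycling replicate 2, and of 8 markers of other lineages only Gfap had a peak, in the list of cycling replicate 2.

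The values are peaks as called by the authors, each with a fold enrichment over the local background and a q-value. The PSME3 lists of cycling replicates 1, 2 and 3 held 1200, 776 and 3070 peaks, the authors' pooled list 5812, and the 4 day 2 lists 18 to 186. The H3K4me3 lists held 14372 to 40999 peaks. Read numbers are not in the lists, so the depth is unknown, and a gene without a peak is a gene where none was called in that library. The background for PSME3 was the 13346 protein-coding genes with an H3K4me3 peak in the pooled cycling list.

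In cycling cells, PSME3 peaks lay at members of every role in the set, at a share near that of other genes with H3K4me3. The pooled list had a peak at 20 of the 49 genes (40.8%), against 35.6% of the background genes and 31 of 88 other splicing genes (35.2%). In the replicate lists, 4 genes (8.16%) had a peak in replicate 1, 4 (8.16%) in replicate 2 and 13 (26.5%) in replicate 3, against 7.34%, 5.9% and 21.9% of the background. The mean share over replicates was 14.3% ± 10.6 (SD, n = 3) for the splicing factor and snRNP genes and 11.7% ± 8.85 (SD, n = 3) for the background. A peak in at least 1 replicate list was found at 15 genes (background 26.2%), in at least 2 lists at 5 genes (7%) and in all 3 lists at 1 gene, Snrpd3 (1.95%). At 5 genes the only peak was in the pooled list (12.9%). In each of these counts the members' share is near the background, and the plot of shares by list shows replicate 3 above replicates 1 and 2 in all 3 gene sets. Replicate 3 gave most of these genes: without it, 6 of 49 had a peak in at least 1 list (12.2%), against 11.1% of the background.

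**Figure D1:**
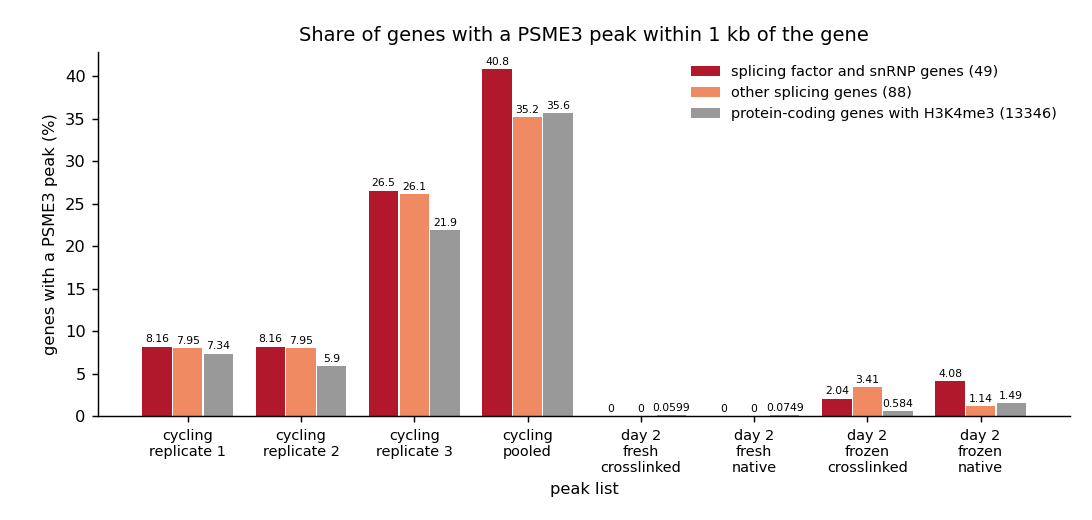
Percent of genes with a PSME3 peak within 1 kb (vertical axis) in each peak list (horizontal axis), for the 49 splicing factor and snRNP genes (red), 88 other splicing genes (orange) and 13346 protein-coding genes with H3K4me3 (grey), 1 bar for each library or pooled list and no error bars. In cycling replicate 3 the bars stand at 26.5, 26.1 and 21.9%, and no day 2 bar passes 4.08%.

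By role, the pooled list had PSME3 at 5 of 11 SR protein genes, 3 of 5 genes for SR-related and speckle proteins, 3 of 7 Sm genes, 2 of 3 U1 genes, 2 of 10 U2 genes, 1 of 2 U2AF genes, 1 of 7 U5 and tri-snRNP genes, at Prpf19, and at 2 of the 3 regulators. These groups are too small for their shares to be set apart from one another, and no test was made. The 29 genes with no PSME3 peak in any list (59.2%, background 60.9%) were Srsf1, Srsf3, Srsf4, Srsf9, Srsf11, Srsf12, Tra2a, Tra2b, Snrpb, Snrpd1, Snrpf, Snrpg, Snrpc, Snrpa1, Snrpb2, Sf3a1, Sf3a3, Sf3b1, Sf3b3, Sf3b4, Sf3b5, U2af1, Snrnp40, Snrnp200, Prpf3, Prpf4, Prpf6, Prpf31 and Mbnl2.

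**Figure D2:**
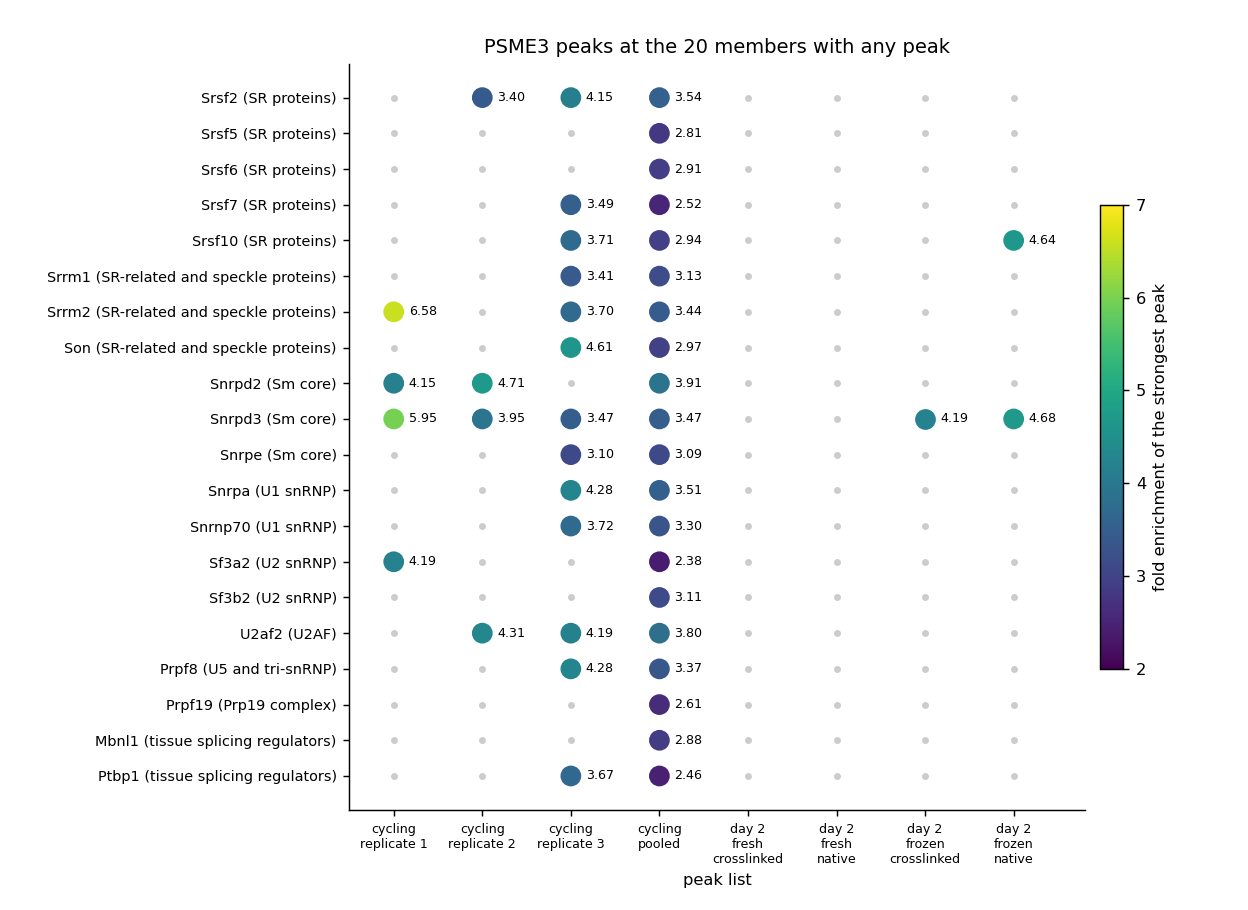
PSME3 fold enrichment of the strongest peak (colour and number) at the 20 genes with any peak (vertical axis, role in brackets) in each of 8 peak lists (horizontal axis), with a small grey dot where no peak was called. Snrpd3 has a value in all 3 cycling replicate lists and in both frozen day 2 lists, and 5 genes have a value in the pooled list only.

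Among the Sm genes, whose products form the ring around U1, U2, U4 and U5 RNA, Snrpd3 had the most PSME3 peaks. Its fold enrichment was 5.95 in cycling replicate 1, 3.95 in replicate 2 and 3.47 in replicate 3, and 3.47 in the pooled list with a q-value of 2.65e-06. The 3 replicate peaks overlapped the same pooled peak, at chr10:75517094-75517869, which was 776 bp wide and ended 173 bp before the annotated start of Snrpd3. Its centre lay 100 bp from the start of the neighbouring gene Gucd1 and 561 bp from that of Snrpd3, so the peak is nearer to the neighbour. Snrpd2 had a peak in replicate 1 (4.15) and replicate 2 (4.71) and none in replicate 3, the library with the most peaks. Its pooled value of 3.91 was the highest of the 49 genes, above 95.7% of all pooled PSME3 peaks, and the peak reached from 600 bp before to 55 bp after the start, with Qpctl also within 1 kb. Snrpe had a peak in replicate 3 only (3.10), with a pooled value of 3.09. Snrpb, Snrpd1, Snrpf and Snrpg had none.

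Of the SR protein genes, Srsf2, whose product binds exonic enhancers, had peaks in replicates 2 and 3 (3.40 and 4.15) and a pooled value of 3.54. The pooled peak lay 133 to 603 bp before the start given in the promoter table, with its centre 213 bp inside the longer Srsf2 span of the gene table and 300 bp from the start of the divergent neighbour Mfsd11. Srsf10, whose product can act as a repressor of splicing, had a peak in replicate 3 (3.71), a pooled value of 2.94 and a peak at day 2. Srsf7 had a peak in replicate 3 (3.49) and a pooled value of 2.52. Srsf5 and Srsf6 had only a pooled peak, at 2.81 and 2.91. So 1 SR protein gene in 11, Srsf2, was called in more than 1 replicate.

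Among the 5 genes for SR-related and speckle proteins, Srrm1, Srrm2 and Son had pooled PSME3 peaks, and Tra2a and Tra2b, which encode exon enhancer binding proteins, had none. Srrm2 had a peak in replicate 1 at 6.58, the highest single value among the 49 genes, and in replicate 3 at 3.70, with none in replicate 2 and a pooled value of 3.44. Its pooled peak covered an annotated start of Srrm2 and lay with its centre 12707 bp inside the span of the gene as the table gives it. Srrm1, a coactivator of splicing, had a peak in replicate 3 (3.41) and a pooled value of 3.13. Son had a peak in replicate 3 (4.61) and a pooled value of 2.97, with its centre 268 bp from the start of the divergent gene Gart and 584 bp from that of Son.

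For the U1 snRNP, Snrpa and Snrnp70, which encode proteins that bind U1 RNA directly, each had a peak in replicate 3 (4.28 and 3.72) and in the pooled list (3.51 and 3.30), while Snrpc had none. For 3′ splice site recognition, U2af2, whose product binds the polypyrimidine tract, had peaks in replicate 2 (4.31) and replicate 3 (4.19) and the second highest pooled value, 3.80. U2af1, its partner at the AG dinucleotide, had none. Among 10 U2 snRNP genes only Sf3a2 and Sf3b2 had a pooled peak. Sf3a2 had a value of 4.19 in replicate 1 and 2.38 in the pooled list, the lowest of the set. Sf3b2 had pooled peaks at its own start (3.11) and at that of Pacs1 next to it (2.69), and no replicate peak. Sf3b1, which contacts the branch point, had none.

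At Prpf8, the core protein of the spliceosome's centre, the peak (4.28 in replicate 3, 3.37 pooled) was centred 23689 bp from the start of Prpf8, just past its other end, and 372 bp from the start of Rilp. It met the 1 kb rule without being a promoter peak of Prpf8. Prpf19, a ubiquitin ligase of the activated spliceosome, had only a pooled peak at 2.61. Ptbp1, which represses many alternative exons, had a peak in replicate 3 (3.67) and a pooled value of 2.46, and Mbnl1, a regulator of muscle isoforms, had only a pooled peak at 2.88.

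The 21 pooled peaks at the 20 genes were weak and narrow, like PSME3 peaks in general. Their fold enrichment ran from 2.38 to 3.91 with a median of 3.09, against 2.92 for all 5812 pooled peaks, and their width from 207 to 962 bp with a median of 471 bp, against 431 bp. Of the 21, 15 overlapped a peak in at least 1 replicate list, 5 in at least 2 lists and 1 in all 3, and 6 overlapped none. All 21 overlapped a pooled H3K4me3 peak, against 93.6% of all pooled PSME3 peaks. The 21 also lay fully inside it, which was not counted for all pooled peaks. The replicate lists also held 21 peaks at these genes, and each of them overlapped H3K4me3 in the library with the same number.

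The peaks lay close to start sites. Of the 21, 18 had their centre within 1 kb of an annotated start of the gene, and 7 of these 18 covered the start itself. By this stricter rule, chosen after the data were seen, 18 of the 43 genes with a start in the promoter table had a pooled peak (41.9%), against 29.3% of background genes. Where the nearest start to the peak centre also had to be that of the gene, the count was 14 of 43 (32.6%), against 25.2%. The start next to the peak belonged to another gene at Snrpd3, Srsf2, Son, Sf3a2, Prpf8 and the second peak of Sf3b2. At U2af2, which has no start in the promoter table, the nearest listed start was that of Gm15510, 4259 bp away, and this does not bear on its own promoter. Of the 21 peaks, 10 lay within 1 kb of another protein-coding gene. Which gene of such a pair a peak belongs to was not tested.

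**Figure D3:**
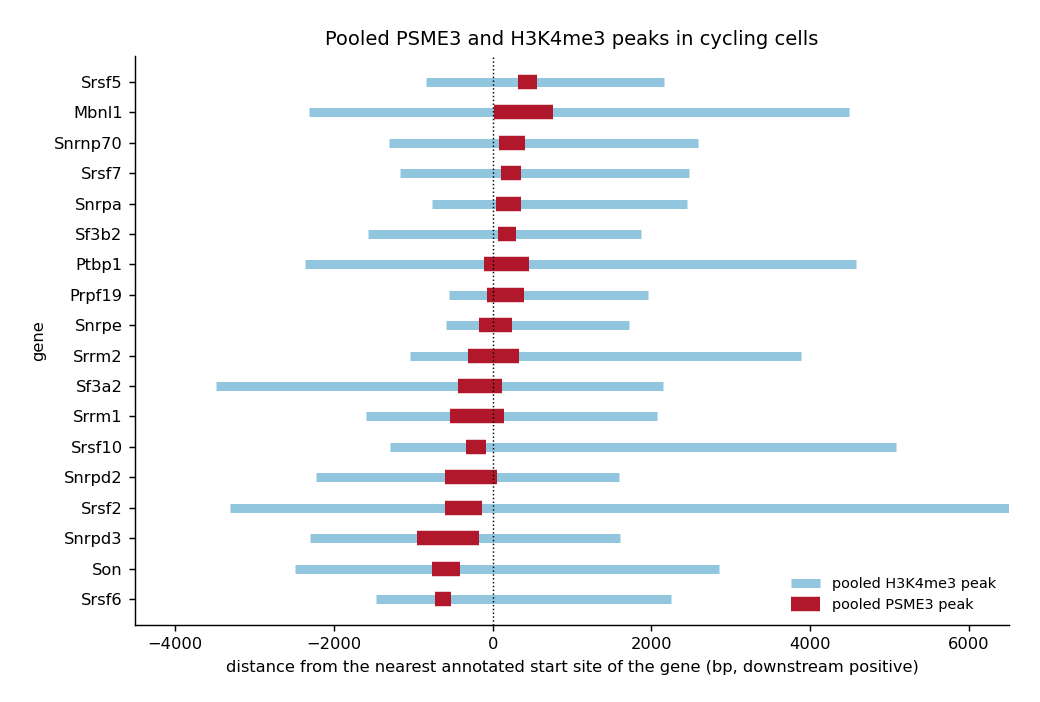
Positions of pooled cycling PSME3 peaks (red) and of the pooled H3K4me3 peaks that hold them (blue) at the 18 genes with a PSME3 peak centre within 1 kb of a start site (vertical axis), in bp from the nearest annotated start of the gene, downstream positive (horizontal axis). All 18 H3K4me3 peaks cover the start and 7 PSME3 peaks do, and the H3K4me3 peak at Srsf2 runs beyond the right edge to 14456 bp.

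Because the peaks sit at promoters, windows of 250 bases are shown. Each ends just before the gene's own start, taken as the one of its starts nearest to the pooled peak. The windows are those of the genes with PSME3 in at least 2 cycling replicate lists or at day 2. U2af2 is left out, since it is not in the promoter table. The windows are RefSeq sequences on GRCm38.p6, for Snrpd3 (chr10:75517792-75518041, plus strand), Snrpd2 (chr7:19149588-19149837, plus strand), Srsf2 (chr11:116853095-116853344, minus strand), Srrm2 (chr17:23802975-23803224, plus strand) and Srsf10 (chr4:135855821-135856070, plus strand). Capitals mark matches, on either strand, to the motifs known as the NF-Y, SP1 and TATA boxes, the ETS core, the NRF1 and YY1 motifs and the CGCG element, which are spelled out with their shares.
Snrpd3: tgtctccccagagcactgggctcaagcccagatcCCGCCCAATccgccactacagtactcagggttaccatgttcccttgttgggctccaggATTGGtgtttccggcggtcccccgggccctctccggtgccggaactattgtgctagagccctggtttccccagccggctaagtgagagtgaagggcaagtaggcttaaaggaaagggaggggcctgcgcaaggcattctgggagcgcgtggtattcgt
Snrpd2: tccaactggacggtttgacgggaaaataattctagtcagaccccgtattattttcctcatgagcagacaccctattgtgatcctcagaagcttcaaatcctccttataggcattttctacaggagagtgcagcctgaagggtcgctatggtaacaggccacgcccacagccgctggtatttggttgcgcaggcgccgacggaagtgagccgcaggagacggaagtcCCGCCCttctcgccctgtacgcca
Srsf2: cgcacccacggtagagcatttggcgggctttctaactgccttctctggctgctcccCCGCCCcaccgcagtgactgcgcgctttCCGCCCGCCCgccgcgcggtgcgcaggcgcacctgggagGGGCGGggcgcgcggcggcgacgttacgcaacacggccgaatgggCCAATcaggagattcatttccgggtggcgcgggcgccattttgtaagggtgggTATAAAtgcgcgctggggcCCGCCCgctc
Srrm2: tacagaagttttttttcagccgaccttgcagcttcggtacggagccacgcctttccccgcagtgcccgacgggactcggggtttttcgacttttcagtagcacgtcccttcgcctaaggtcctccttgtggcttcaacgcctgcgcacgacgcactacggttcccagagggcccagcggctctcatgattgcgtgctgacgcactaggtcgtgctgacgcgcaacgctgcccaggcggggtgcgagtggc
Srsf10: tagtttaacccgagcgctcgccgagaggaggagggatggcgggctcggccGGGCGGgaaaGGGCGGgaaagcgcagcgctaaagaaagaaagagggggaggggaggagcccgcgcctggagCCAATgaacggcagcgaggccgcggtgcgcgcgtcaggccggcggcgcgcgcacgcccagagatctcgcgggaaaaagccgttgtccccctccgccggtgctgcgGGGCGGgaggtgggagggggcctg
Of the 250 bases shown, the pooled PSME3 peak covered 250 at Srrm2 and Snrpd2, 162 at Srsf10, 118 at Srsf2 and 78 at Snrpd3. The G and C content was 72.0% at Srsf10, 69.6% at Srsf2, 61.6% at Srrm2, 60.4% at Snrpd3 and 54.0% at Snrpd2. Srsf2 held a TATA match, an NF-Y match and 5 SP1 matches, Srsf10 held 3 SP1 matches and an NF-Y match, and Snrpd3 held an SP1 match that runs into the first of its 2 NF-Y matches. Snrpd2 held an SP1 match only, and Srrm2 held no match to any of these motifs.

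To show the ETS core and the CGCG element, 3 genes with no PSME3 peak in any list are printed in the same way. They were chosen because they hold a CGCG element or more than 1 ETS core upstream of the start, so their motifs cannot be set against those of the genes with PSME3, and Srsf5, which has a pooled PSME3 peak, also holds 2 ETS cores upstream of a start. The windows are those of Snrpg (chr6:86371290-86371539, plus strand), Snrpb2 (chr2:143062819-143063068, plus strand) and Srsf4 (chr4:131873387-131873636, plus strand).
Snrpg: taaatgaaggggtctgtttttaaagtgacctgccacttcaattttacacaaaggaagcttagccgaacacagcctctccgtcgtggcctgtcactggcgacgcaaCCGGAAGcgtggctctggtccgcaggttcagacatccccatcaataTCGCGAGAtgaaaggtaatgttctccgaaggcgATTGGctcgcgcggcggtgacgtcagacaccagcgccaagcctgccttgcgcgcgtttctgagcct
Snrpb2: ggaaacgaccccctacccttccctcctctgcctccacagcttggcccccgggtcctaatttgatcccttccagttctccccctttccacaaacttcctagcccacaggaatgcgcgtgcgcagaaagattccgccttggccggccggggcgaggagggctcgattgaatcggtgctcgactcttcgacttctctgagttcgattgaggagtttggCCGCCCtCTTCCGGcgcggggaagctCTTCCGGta
Srsf4: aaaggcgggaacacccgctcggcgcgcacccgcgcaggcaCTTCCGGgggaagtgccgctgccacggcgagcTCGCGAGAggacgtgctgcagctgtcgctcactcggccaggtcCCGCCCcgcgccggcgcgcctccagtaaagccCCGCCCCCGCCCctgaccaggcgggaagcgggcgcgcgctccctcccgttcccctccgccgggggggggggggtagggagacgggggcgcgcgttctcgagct
Snrpg held a CGCG element, an ETS core and an NF-Y match, Snrpb2 held 2 ETS cores and an SP1 match, and Srsf4 held a CGCG element, an ETS core and 3 SP1 matches.

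The 53 promoter windows of the 43 genes (250 bases before to 50 after each start) were rich in CpG, with a median of 25 CpG dinucleotides and a median G and C content of 60.3%. The 11517 windows of protein-coding genes that overlapped a pooled H3K4me3 peak had a median of 22 and 62.0%. Each motif was searched on both strands. The ETS core, CCGGAAG, was in 20 of 53 windows (37.7%), against 18.8% of those with H3K4me3 and 8.86% of all 32851 windows in the table. Windows of the other splicing genes held it in 24 of 89 cases (26.97%), so a share above that of windows with H3K4me3 was not particular to the 49 genes. Counted by gene, 17 of 43 held it (39.5%), against 20.6% of protein-coding genes with a start inside an H3K4me3 peak. The CGCG element, TCTCGCGA, was in 4 windows (7.55%, against 2.35% of those with H3K4me3 and 0.995% of all), which belong to Snrpg, Srsf4 (2 overlapping windows) and Srsf10, where the matches lie after the start. The NRF1 motif, GCGCATGC, was in 4 windows, or 7.55%, against 5.64% of windows with H3K4me3 and 2.71% of all. The YY1 motif, AAGATGGC, was in 2, or 3.77%, against 4.62% and 2.75%. The NF-Y box, CCAAT, was in 22 windows, or 41.5%, against 38.1% and 37.4%. For the SP1 box, GGGCGG, the number was 32, or 60.4%, against 68.4% and 35.7%. The TATA box, searched as TATAAA, was in 5 windows, or 9.43%, against 6.32% and 13.6%. The E-box, CANNTG, was in 28 windows, or 52.8%, against 61.1% and 72.3%, and it was not marked in the sequences. No motif contains another, but matches can overlap, as those of NF-Y and SP1 do at Snrpd3. Of the 53 windows, 14 (26.4%) overlapped a pooled PSME3 peak, against 26.6% of those with H3K4me3.

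At day 2, PSME3 peaks were called at 2 of the 49 genes. The fresh crosslinked and the fresh native lists had none (background 0.0599% and 0.0749%), the frozen crosslinked list had 1 (0.584%) and the frozen native list had 2 (1.49%). With any preparation counted, 2 genes had a peak (4.08%), against 1.63% of the background, and the lists hold 18 to 186 peaks in all. Snrpd3 had a fold enrichment of 4.19 in the frozen crosslinked list and 4.68 in the frozen native list, and both peaks, 137 and 142 bp wide, lay inside the cycling peak. Srsf10 had a value of 4.64 in the frozen native list, with a peak 183 bp wide centred 267 bp before its start. These 3 peaks had q-values of 0.0204, 0.00398 and 0.0146. None of the 49 genes had a peak in all 3 cycling lists and none at day 2, against 146 background genes (1.09%), since Snrpd3, the only gene with 3 cycling peaks, also had peaks in both frozen day 2 lists. For a single gene, 3 against 4 lists could reach an exact two-sided p of 0.0286 at the lowest, so no gene could pass an adjustment over all genes, and no test was made.

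H3K4me3 was present at all but 1 of the genes at both stages. A peak was found in all 3 cycling and all 4 day 2 lists at 48 of 49 genes, against 53.2% of protein-coding genes, and at 88 of 88 other splicing genes. The pooled cycling list gave the same 48 genes, against 60.9% of protein-coding genes. Srsf12, an SR protein gene, had no H3K4me3 peak in any list. The strongest H3K4me3 peak covered an annotated start at 41 or 42 of the 42 genes that had both. The exception was Srsf10 in 3 of the 7 lists, where the strongest peak began past the far end of the gene, less than 1 kb away. In those lists the level and percentile of Srsf10 come from that peak and not from one at its start.

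The level of the mark was in the upper part of the range. Fold enrichment is scaled within a list, so each gene was ranked among protein-coding genes with a peak in the same list. The median percentile of the 48 genes was between 57.9 and 73.2 over the 7 lists, with the lowest in day 2 frozen native and the highest in cycling replicate 2, and was 69.5 in the pooled list. The other splicing genes had medians between 61.2 and 68.7. Of the 48 genes, 20 were above the 50th percentile in every list, against 30.4% of protein-coding genes with a peak in all 7 lists, and 1, Snrnp200, was below it in every list, against 24.4%. Prpf4, a protein of the U4/U6 snRNP, had the highest median percentile, 99.6, with a lowest value of 71.2 in cycling replicate 1. Mbnl2 (92.9), Son (90.7), Snrpd3 (90.5) and Sf3b1 (90.2) followed, and their ranges over lists overlapped. The lowest medians were at Prpf3 (33.9), Snrnp200 (37.0) and Snrpc (38.0).

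**Figure D4:**
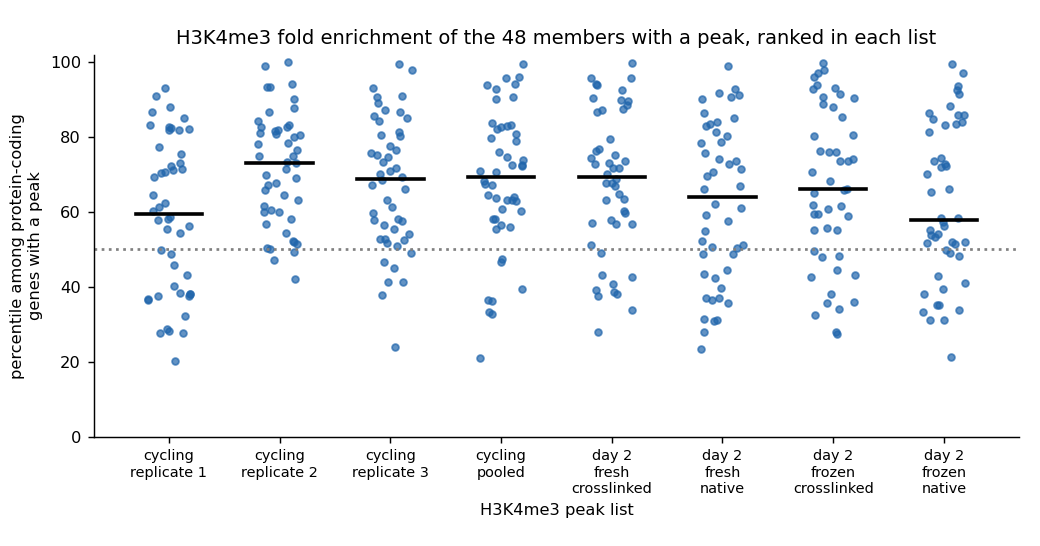
Percentile of the H3K4me3 fold enrichment of 48 genes among protein-coding genes with a peak (vertical axis) in the 7 replicate or preparation lists and the pooled list (horizontal axis), 1 point for each gene and a bar at the median. The medians lie between 57.9 and 73.2, above the dotted line at 50, and genes spread over most of the range in each list.

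The 20 genes with a pooled PSME3 peak had broader H3K4me3 than the other 28, with a median summed width of 4688.5 bp against 3414 bp and a median fold enrichment of 16.9 against 16.1. Background genes showed the same order, with 4109 bp against 2765 bp and 16.0 against 12.9. PSME3 and H3K4me3 came from the same cells, and whether breadth of the mark sets the chance of calling a PSME3 peak was not tested.

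Whether the level of H3K4me3 at these genes changed with differentiation was tested with limma on quantile-normalised log2 fold enrichment over the 14431 genes with a peak in all 7 lists, with terms for crosslinking and for fresh cells, so that the stage term stands for the difference under frozen native handling. No gene of the set passed an adjusted p of 0.05, out of 48, while 0.610% of all genes tested were called higher at day 2 and 0.901% lower. At an unadjusted p below 0.05, 7 of the 48 genes were counted by limma (14.6%), 2 higher and 5 lower, against 12.5% of all genes tested, and 1 gene was counted without the day 2 frozen native library. The median stage term was 0.03 for the 48 genes and 0.00 for all genes on the log2 scale, and 26 of the 48 were positive. Without cycling replicate 1 the median for the 48 genes was -0.065 and 20 were positive. In the other alternative fits 24 to 26 were positive. The 3 residual degrees of freedom and the different preparations limit what this test can call.

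The 5 genes with the lowest stage terms were Sf3a3, Sf3b2, Prpf19, Snrnp40 and Srrm1. Sf3a3, a subunit of SF3a in the U2 snRNP, had normalised log2 values of 3.41, 3.70 and 3.66 in cycling replicates 1 to 3, and of 3.49, 3.53, 3.21 and 3.07 at day 2 in the order fresh crosslinked, fresh native, frozen crosslinked and frozen native. The groups overlapped, and the stage term was -0.48 (SE 0.16, limma adjusted p = 0.214). Sf3b2, a subunit of SF3b, had values of 4.03, 3.87 and 4.10 in cycling cells and of 3.79, 3.37, 3.72 and 3.69 at day 2. All 4 day 2 values were below the cycling ones, with a stage term of -0.40 (SE 0.16, limma adjusted p = 0.321). Prpf19 and Snrnp40, a WD repeat protein of U5, had stage terms of -0.38 and -0.36 with overlapping groups, and Srrm1 had one of -0.33 without overlap, at limma adjusted p values of 0.314, 0.374 and 0.391.

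The 5 genes with the highest stage terms were Tra2b, Prpf6, Sf3a2, Sf3b4 and Srsf3, and in each of them all 4 day 2 values were above the 3 cycling values. Tra2b, which binds exonic enhancers, had values of 3.18, 3.59 and 3.61 in cycling cells and of 3.80, 3.83, 3.88 and 3.86 at day 2, with a stage term of 0.41 (SE 0.18, limma adjusted p = 0.352). Prpf6, which bridges the parts of the tri-snRNP, had values of 2.91, 3.49 and 3.06 in cycling cells and of 3.93, 3.49, 3.69 and 3.61 at day 2, so that cycling replicate 2 and the fresh native library were level to 2 decimals. Its stage term was 0.37 (SE 0.20, limma adjusted p = 0.483). Sf3a2 had values of 3.80, 3.83 and 3.87 against 4.17, 4.01, 4.11 and 4.28, with a stage term of 0.37 (SE 0.15, limma adjusted p = 0.337). Sf3b4 and Srsf3 had stage terms of 0.29 and 0.25 with limma adjusted p values of 0.465 and 0.574. None of these differences passed the test.

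Groups that did not overlap were common throughout the table. Of the 48 genes, 8 had all day 2 values above the cycling ones (16.7%, against 11% of all genes tested) and 4 had all below (8.33%, against 10.9%). The 8 were Sf3a2, Sf3b4, Tra2b, Srsf3, Snrpb, Mbnl2, Prpf6 and U2af2, and the 4 were Sf3b2, Srsf6, Srrm1 and Snrpa1. At 3 of the 48 genes, Srsf10, Srsf11 and U2af2, the strongest peaks of the 7 lists did not all overlap, so the values compare different peaks and give no stage difference at 1 site. The U2 snRNP genes were on both sides, with Sf3a2 and Sf3b4 above and Sf3b2 and Snrpa1 below. Snrpd3, which had PSME3 at day 2, had a stage term for H3K4me3 of -0.10 (SE 0.15), and Srsf2, Srrm2 and Snrpd2, which had PSME3 in cycling cells only, had terms of 0.03, 0.03 and -0.10, with limma adjusted p values of 0.957, 0.953 and 0.869.

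**Figure D5:**
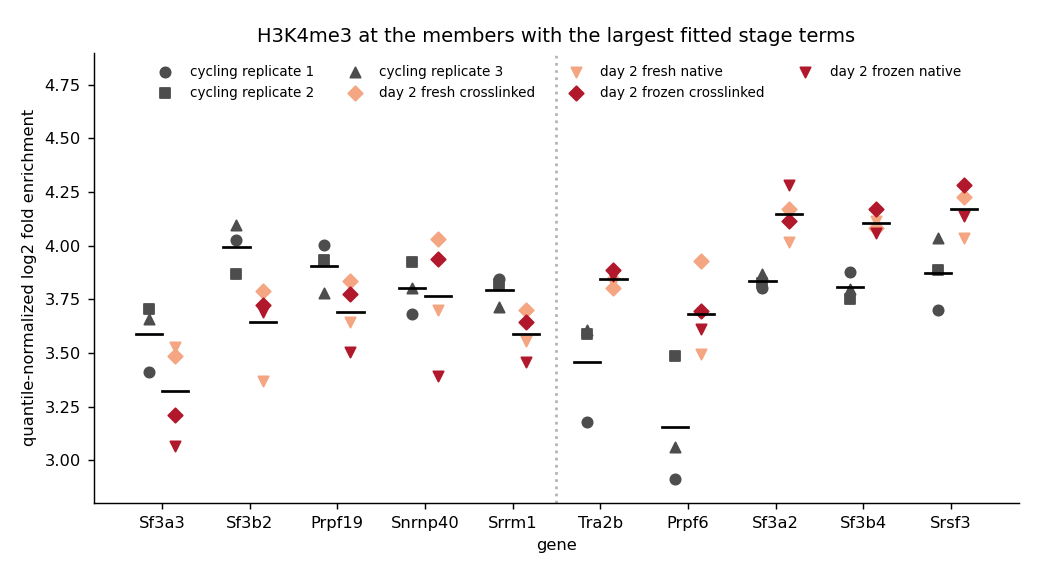
Quantile-normalised log2 H3K4me3 fold enrichment (vertical axis) of the 10 genes with the lowest (left of the dotted line) and highest fitted stage terms (horizontal axis), with 3 cycling libraries in grey, 4 day 2 libraries in orange (fresh) and red (frozen), and bars at the group means. The day 2 points of Tra2b, Sf3a2, Sf3b4 and Srsf3 lie above the cycling points, those of Prpf6 meet them at 3.49, and those of Sf3a3, Prpf19 and Snrnp40 overlap them.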

How the data were processed

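CUT&RUN peaks of PSME3 and H3K4me3 in C2C12 cells were analysed in 14 of 21 libraries. The 7 IgG libraries had no peak list of their own here and were not used. According to the submitters' processing notes, the authors used Trim Galore, Bowtie2 with mm10, and MACS2 for the peak calls. Versions, options and the control library are not given in the sources used here. The columns follow the MACS2 broad peak format. Every deposited peak carries a fold enrichment (a ratio over the background MACS2 estimated), the -log10 of its p-value and of its q-value, and a score derived from the q-value, which was not used further. All listed peaks have q-values under 0.1. Since read numbers are not in these files, depth is unknown and no interval for counting error could be given. The 2 pooled lists were used as the authors' own calls.

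Genes, start sites and promoter sequences were taken from RefSeq (GRCm38.p6). Peaks and genes were joined in Python 3.11.15 with pandas 2.3.3 and numpy 2.4.6, with at least 1 bp shared. Of the 49 genes, 43 had a start site in the promoter table. Sf3b4, Sf3b5, Snrnp40, Snrpb, Snrpd1 and U2af2 were not in it.

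H3K4me3 levels were compared with limma 3.58.1 in R 4.3.3, with Benjamini-Hochberg adjustment over all genes tested. The deposited fold enrichment of the strongest peak of each gene was put on a log2 scale and quantile normalised. The fit and the overlap step were tested on simulated data. Replicates of cycling cells are biological by the study's account.

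PSME3 and H3K4me3 libraries share replicate numbers. Whether these pair the libraries was checked on the share of peaks on each of 19 autosomes. Deviations of libraries with the same number correlated at r = 0.538, 0.552 and 0.264, but replicates 1 and 3 also correlated crosswise (0.521 and 0.254). The rule was that each pair must exceed 0.1, and the numbers were used as pairs on that ground. An exchange of replicates 1 and 3 would pass the same rule, so the check cannot show that the numbers pair the libraries.

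The members and gene lists were chosen with earlier results of these data known, so shares are set beside those of other genes and no test was made over the list. The genes named are those with PSME3 in at least 2 cycling replicate lists or at day 2, the 10 highest pooled fold enrichments, those with no PSME3 or no H3K4me3 peak, and the 5 largest stage terms each way. The other pooled-peak genes were named as well, after their values were seen. Alternatives for distance, threshold, overlap, normalisation and left-out libraries were computed.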

Additional observations from a re-analysis of the deposited data

How the results depend on the processing

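The count of 20 genes with a pooled PSME3 peak and of 48 with H3K4me3 stayed within 1.5 times of these values at 0 bp, 3 kb, a gene boundary or the peak centre. A q-value of at most 0.01 left 13 genes in the pooled list (26.5%, background 20.9%) and 8 in at least 1 replicate list (16.3%, background 13%). At day 2 it left 1 gene (2.04%), both with any preparation counted (background 1.16%) and in the frozen native list (background 1.07%). At 0 bp, 1 gene had PSME3 at day 2 (2.04%), again by both counts (background 0.974% and 0.869%). Pooled peaks that overlapped at least 2 replicate lists were at 5 genes (6.5%). With replicate 1, 2 or 3 left out, 14, 15 and 6 genes had PSME3 in at least 1 list (28.6%, 30.6% and 12.2%). The background shares were 23.6%, 24.7% and 11.1%. In every remaining cycling list and not at day 2 there were 2, 1 and 1 genes (4.08%, 2.04% and 2.04%), against 0 with all 3 lists. Among background genes that last count was 426, 459 and 173 (3.19%, 3.44% and 1.3%), against 146 (1.09%).

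The replicate block was applied only to the overlap of PSME3 replicate peaks at these genes with H3K4me3. This was 100% with the same replicate number, with the other numbers and with the pooled list, so a measure already at its limit says nothing about the effect of pairing.

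In the H3K4me3 test, 218 genes were called over all genes tested. The number was 1211 with stage alone, 345 with native day 2 preparations only, 113 with median centring, 405 with -log10 q-values and 145 with summed peak width. With a library left out it was 1 to 497: 497 without cycling replicate 1, 121 without cycling replicate 3, 108 without day 2 fresh crosslinked or without day 2 fresh native, 106 without day 2 frozen crosslinked and 1 without day 2 frozen native. Of the 48 genes, 0 were called in the fit as reported, 0 to 1 with a library left out, and 1 with stage alone. These were Sf3a3 without cycling replicate 1 (-0.58, limma adjusted p = 0.0346) and Prpf6 with stage alone (0.53, limma adjusted p = 0.0333). At an unadjusted p below 0.05 the 7 of 48 genes became 8 with stage alone or without cycling replicate 1, 4 with -log10 q-values or without cycling replicate 2, 2 with summed width, 1 without day 2 frozen native, and 2 with any other single day 2 library left out. Without day 2 frozen native the stage term was 0.12 at Sf3a2, 0.10 at Prpf6, -0.19 at Snrnp40 and -0.68 at Sf3b2. Stage alone gave -0.039 at Snrnp40, -0.27 at Sf3a3, -0.22 at Prpf19 and -0.20 at Srrm1. Native day 2 preparations only gave -0.29 at Sf3a3, and leaving out cycling replicate 1 gave 0.17 at Srsf3. Values of -log10 q gave 0.20 at Sf3a2 and 0.43 at Sf3b4. With summed width in place of fold enrichment the sign turned at Prpf19 (0.20), Srrm1 (0.13), Tra2b (-0.25), Prpf6 (-0.086) and Sf3b4 (-0.37), and the term was nearer to 0 at Sf3b2 (-0.074), Snrnp40 (-0.073), Sf3a2 (0.045) and Srsf3 (0.085). The cause of these shifts was not tested. Peak lists without read numbers and 1 library for each day 2 preparation limit all of these results.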

Other observations

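For the 88 other splicing genes, the pooled list had a PSME3 peak at 31, a share of 35.2%, including 10 of 14 hnRNP genes, 8 of 22 genes for helicases and tri-snRNP partners, 5 of 15 other regulators, 3 of 7 exon junction genes, 2 of 7 Lsm genes, 2 of 17 Prp19 complex partners and step factors, and 1 of 6 SR protein kinases, against 35.6% of background genes. The hnRNP share was the highest of these lists, and it was noticed after the values were seen.

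A peak in all 3 cycling lists and in no day 2 list was found at 4 of the 88 genes, against 1.09% of background genes. Sf1, the branch point binding protein, had fold enrichments of 5.02, 5.06 and 4.32 in replicates 1 to 3, Khsrp had 4.73, 3.77 and 4.31, Hnrnpa1 had 4.46, 4.40 and 3.95, and Rbfox2, a regulator of muscle exons, had 4.42, 3.99 and 3.99. At day 2, Hnrnpl had a value of 4.33 in the frozen crosslinked list and 5.41 in the frozen native list, and Hnrnpa2b1 had one of 5.29 in the frozen crosslinked list.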
